A study of Mus musculus with 7 samples.

Results

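The fibrillar collagens examined here are the 9 genes Col1a1, Col1a2, Col3a1, Col5a1, Col5a2, Col5a3, Col11a1, Col24a1 and Col27a1, chosen because their proteins form fibrils, out of 55450 genes in the count table. All 9 were among the 17959 genes that had enough counts to be tested. Dorsal skin came from male C57BL/6 mice aged 24 months whose hair had been removed by clipping and a depilatory cream. The skin of 4 mice (480 to 483) received the vehicle DMSO and that of 3 mice (476 to 478) received 5 µM ABT-263 in DMSO, under a dressing for 5 days. ABT-263 (navitoclax) is an inhibitor of anti-apoptotic Bcl-2 family proteins that is used to remove senescent cells, and the comparison addressed how topical treatment changed gene expression in aged skin. Each library was made from poly(A) RNA of the homogenized whole skin of 1 mouse, so epidermis, dermis, hair follicles and the muscle under the skin were measured together, and skin without DMSO is not analysed here.

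Collagen fibrils are built from rod-like molecules in which 3 alpha chains wind around each other. Type I collagen, the main fibril of the dermis, joins a pair of chains encoded by Col1a1 with 1 chain encoded by Col1a2. Type III collagen is made of identical chains from Col3a1 alone and is abundant in young skin and in healing wounds, and type V collagen, from Col5a1, Col5a2 and Col5a3, lies inside type I fibrils and limits their width. Type XI collagen takes that place in cartilage, and types XXIV and XXVII are minor fibrillar collagens of bone and cartilage.

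The RefSeq promoter table (GRCm38.p6) held 7 of the 9 genes, all but Col1a1 and Col5a2. For each gene there that passed the test described below, the 250 bases before its RefSeq start are printed 5′ to 3′, since genes that moved together can then be compared in their upstream letters. Capitals mark matches, on either strand, to the TATA box (TATAAA), the CCAAT box (CCAAT), the GC box (GGGCGG) and a motif with the core of the Smad-binding element (CAGACA), and no matches overlapped.
Col1a2, chr6:4505368-4505617, plus strand: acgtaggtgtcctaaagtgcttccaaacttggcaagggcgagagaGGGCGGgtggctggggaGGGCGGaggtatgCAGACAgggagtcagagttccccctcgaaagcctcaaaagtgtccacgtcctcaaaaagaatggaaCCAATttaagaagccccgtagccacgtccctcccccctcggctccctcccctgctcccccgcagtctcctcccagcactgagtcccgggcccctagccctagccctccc
Col3a1, chr1:45311288-45311537, plus strand: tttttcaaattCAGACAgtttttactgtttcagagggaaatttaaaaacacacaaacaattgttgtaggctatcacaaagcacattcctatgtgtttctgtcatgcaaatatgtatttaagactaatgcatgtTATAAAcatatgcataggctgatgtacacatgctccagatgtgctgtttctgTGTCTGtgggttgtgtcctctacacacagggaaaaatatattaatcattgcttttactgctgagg
Col5a1, chr2:27886175-27886424, plus strand: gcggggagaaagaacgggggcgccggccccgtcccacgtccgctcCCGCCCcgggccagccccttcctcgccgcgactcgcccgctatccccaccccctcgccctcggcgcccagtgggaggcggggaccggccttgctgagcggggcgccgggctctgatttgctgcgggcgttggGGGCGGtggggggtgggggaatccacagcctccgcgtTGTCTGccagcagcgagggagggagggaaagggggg
Col5a3, chr9:20815068-20815317, minus strand: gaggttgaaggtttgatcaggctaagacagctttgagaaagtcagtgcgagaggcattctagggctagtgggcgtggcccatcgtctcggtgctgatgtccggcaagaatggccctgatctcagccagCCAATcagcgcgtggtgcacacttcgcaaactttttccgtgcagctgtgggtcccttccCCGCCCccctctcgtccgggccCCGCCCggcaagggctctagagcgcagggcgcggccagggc
Col27a1, chr4:63215162-63215411, plus strand: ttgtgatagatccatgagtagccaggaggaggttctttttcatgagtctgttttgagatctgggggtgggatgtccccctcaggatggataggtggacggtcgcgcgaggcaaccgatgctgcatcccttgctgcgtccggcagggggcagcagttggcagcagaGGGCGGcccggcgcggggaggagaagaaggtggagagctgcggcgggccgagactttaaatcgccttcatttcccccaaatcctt
The RefSeq start lay downstream of the GENCODE gene start given below for Col1a2 and Col27a1, so those windows lie inside the annotated gene, while those of Col3a1, Col5a1 and Col5a3 end at the base before it. The window of Col3a1 was the only one of the 7 with TATAAA, which 12.4% of 32851 windows of that length held. The match lay 117 bases before the RefSeq start, and whether it acts as a TATA box was not tested. This window had a GC content of 35.2% and 0 CpG dinucleotides against a median GC content of 52.4% over all windows. The window of Col5a1 had a GC content of 76.4% and 28 CpG dinucleotides, and those of Col1a2, Col5a3 and Col27a1 lay between 59.6% and 62.8%. CAGACA occurred 2 times in the window of Col3a1, 1 time each in those of Col1a2 and Col5a1, and in none of the other 4, while 17.1% of all windows held it. GGGCGG was in 5 of the 7 windows and in 32.7% of all windows, CCAAT was in 3 of the 7 and in 33.8% of all, and TGANTCA, the AP-1 element, was in 0 of the 7 and in 6.75% of all. The shares over all windows, that of TATAAA included, were not matched to these windows in GC content. The 4 printed genes that rose had no searched motif in common.

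The libraries held between 20344364 and 43562330 counts, with all 3 ABT-263 libraries deeper than all 4 DMSO libraries. Markers of keratinocytes (19508 to 68698 CPM summed over the list, where CPM are counts per 1000000 counts of a library), of skeletal muscle (27647 to 70787 CPM) and of dermal fibroblasts (1441 to 3122 CPM) were present in all 7 libraries. The library of DMSO mouse 481 stood apart in hair follicle markers, with 2134 CPM against 66.9 to 68.4 CPM in the other DMSO libraries. Results that rest on this library are given with and without it.

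After ABT-263, 5 fibrillar collagens rose (Col1a2, Col3a1, Col5a1, Col5a2 and Col5a3), Col27a1 fell, and Col1a1, Col11a1 and Col24a1 did not pass the threshold (adjusted p under 0.05, edgeR's quasi-likelihood test). Of all genes tested, 24.2% passed it, with 12.4% higher and 11.7% lower after ABT-263. The libraries of the groups did not overlap in CPM for 6 of the 9 collagens and for 37.1% of all genes tested. The median log2 fold change was 1.19 over the 9 collagens and 0.0022 over all genes tested. Summed over the 9 genes, fibrillar collagens took 0.348% to 0.476% of the counts of the DMSO libraries and 0.790% to 1.38% of those of the ABT-263 libraries. In homogenized skin, a change in the number of collagen-producing cells and a change in the RNA of each cell cannot be told apart.

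**Figure D1:**
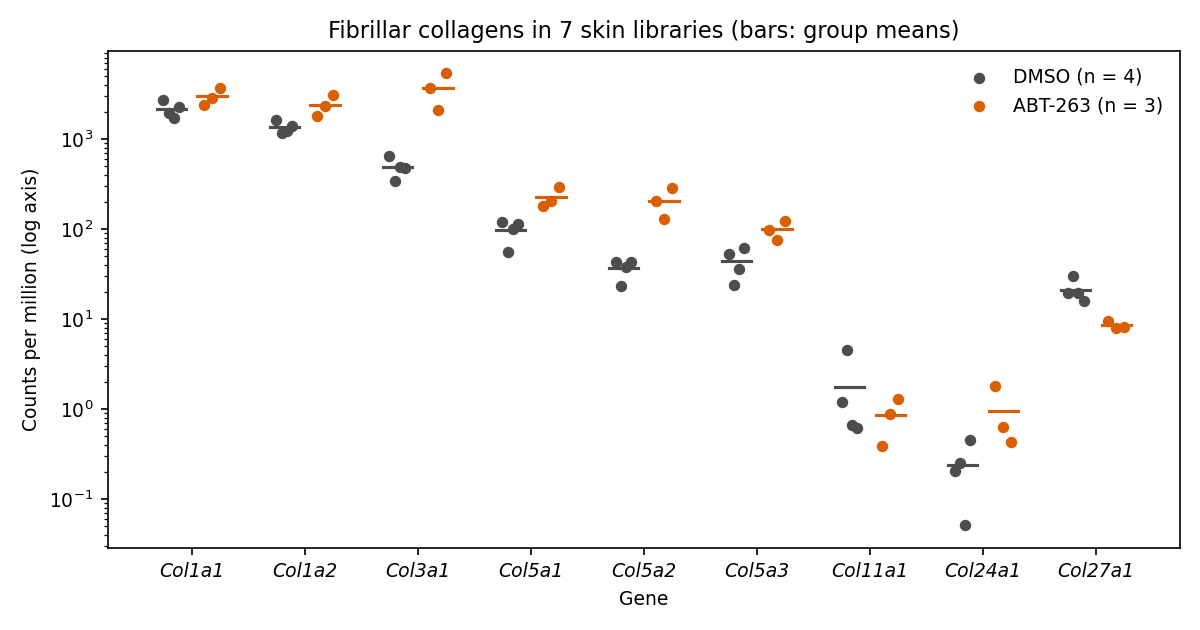
CPM (log axis) of the 9 fibrillar collagens in each library, with DMSO in grey (n = 4) and ABT-263 in orange (n = 3), and a bar for each group mean. The groups stand apart for Col1a2, Col3a1, the 3 Col5 genes and Col27a1, with the widest gap at Col3a1.

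The type I chains were the most abundant in DMSO skin. Col1a1 (chromosome 11, 94936224 to 94953042, mm10), which encodes the alpha 1 chain, was at 2715, 1931, 1707 and 2277 CPM in DMSO mice 480, 481, 482 and 483 and at 2389, 2879 and 3718 CPM in ABT-263 mice 476, 477 and 478. The ABT-263 mouse 476 lay below the DMSO mouse 480, so the groups overlapped. Its log2 change of 0.47, with a standard error of 0.25, had an adjusted p of 0.196 from edgeR. Col1a2 (chromosome 6, 4504814 to 4541544), which encodes the alpha 2 chain, was at 1626, 1165, 1238 and 1389 CPM in the DMSO mice and at 1781, 2349 and 3081 CPM in the ABT-263 mice. The lowest ABT-263 library was above the highest DMSO library, and mouse 478 was the highest in both type I genes. Col1a2 rose 1.77-fold, a log2 change of 0.83 with a standard error of 0.24 (edgeR adjusted p = 0.0410). That call was lost without DMSO mouse 481, 482 or 483 or ABT-263 mouse 477 or 478, where the log2 fold change was between 0.61 and 0.86 and the adjusted p from edgeR between 0.0656 and 0.131.

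Col3a1 (chromosome 1, 45311538 to 45349706, plus strand), the only gene of type III collagen, had the largest change of the 9. It was at 643, 344, 491 and 477 CPM in DMSO mice 480 to 483 and at 3676, 2128 and 5368 CPM in ABT-263 mice 476 to 478. Every ABT-263 library was more than 3 times the highest DMSO library, while the ABT-263 libraries themselves spread from 2128 to 5368 CPM. The 7.62-fold increase had an adjusted p of 0.00602 from edgeR, and in the 7 fits that left out 1 library the log2 fold change stayed between 2.58 and 3.23 with adjusted p of at most 0.0297. Col3a1 shared 1.44% of its exon bases with Gm47302, a gene annotated on the same strand, and no exon base with a gene on the other strand.

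The type V genes rose as well, though not by the same amount. Col5a2 (chromosome 1, 45374321 to 45503282, minus strand), the neighbour of Col3a1 with 24614 bases and 0 annotated genes between them, was at 42.8, 23.3, 38.1 and 43.5 CPM after DMSO and at 204, 128 and 286 CPM after ABT-263. The rank of the 3 ABT-263 mice was that of Col3a1, with mouse 477 lowest and mouse 478 highest. The 5.58-fold increase had an adjusted p of 0.00622 from edgeR, which was at most 0.0297 with each library left out. Col5a1 (chromosome 2, 27886425 to 28039514), whose chain is part of nearly every type V molecule, was at 120.3, 55.5, 100.4 and 115 CPM after DMSO and at 178, 203 and 294 CPM after ABT-263. The groups did not overlap, and DMSO mouse 481 was again the lowest. The log2 change was 1.20 with a standard error of 0.29 (edgeR adjusted p = 0.0231), and the call was lost without ABT-263 mouse 478 (adjusted p = 0.0777) or DMSO mouse 482 (adjusted p = 0.0614).

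Col5a3 (chromosome 9, 20770050 to 20815067), which encodes the least widespread type V chain, was at 53.3, 24.1, 36.1 and 61.2 CPM after DMSO and at 97.9, 76.2 and 124 CPM after ABT-263. All 3 ABT-263 libraries were above all 4 DMSO libraries. It rose 2.28-fold, a log2 change of 1.19 with a standard error of 0.32 (edgeR adjusted p = 0.0329). The adjusted p from edgeR was 0.0823 without ABT-263 mouse 476, 0.105 without mouse 478, 0.0862 without DMSO mouse 482, and 0.0515 with no filter on low counts.

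**Figure D2:**
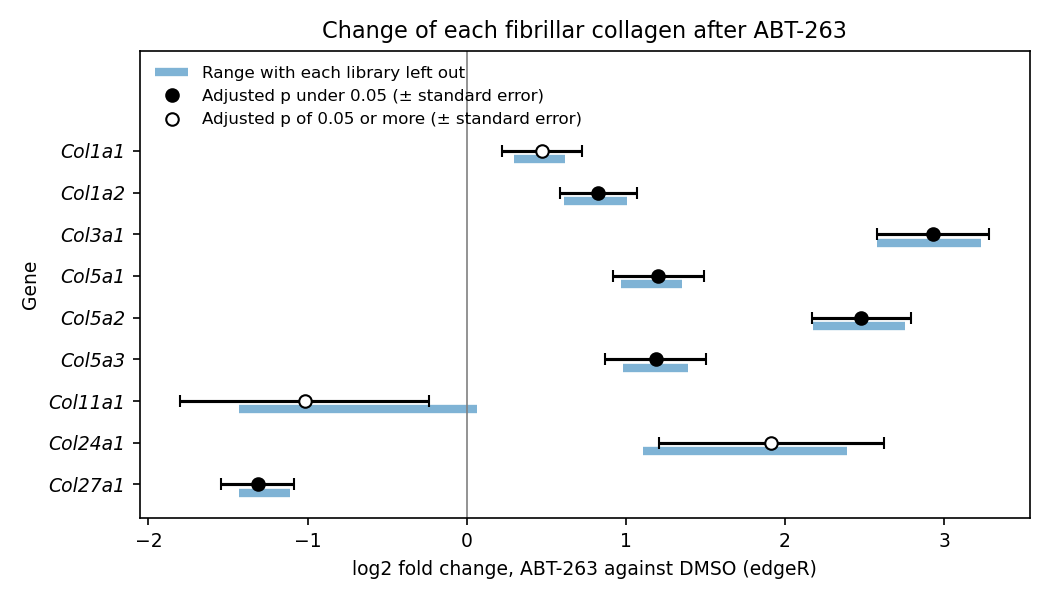
log2 fold change of each fibrillar collagen, ABT-263 against DMSO, from edgeR with its standard error (circles, filled where the adjusted p is under 0.05), and the range with each library left out in turn (blue bars). Col3a1 and Col5a2 lie above 2 in every fit, Col27a1 lies below -1 in every fit, and the bar of Col11a1 crosses 0.

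Of the cartilage and minor collagens, only Col27a1 passed the threshold. Col27a1 (chromosome 4, 63214004 to 63334991), whose chain forms thin fibrils in growth cartilage, was at 19.6, 29.8, 19.7 and 16.1 CPM after DMSO and at 9.62, 7.94 and 8.12 CPM after ABT-263. The groups did not overlap, and the ABT-263 libraries differed less among themselves (SD 0.921 CPM) than the DMSO libraries (SD 5.92 CPM). Col27a1 was 2.49-fold lower, a log2 change of -1.31 with a standard error of 0.23 (edgeR adjusted p = 0.00972), and was past the threshold in all 7 fits that left out a library.

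Col11a1 (chromosome 3, 114030540 to 114220718), the main chain of cartilage type XI collagen, had 29, 108, 13 and 15 counts in the DMSO libraries and 11, 35 and 60 counts in the ABT-263 libraries. In CPM, DMSO mouse 481 was at 4.55, and the other 6 libraries lay between 0.393 and 1.29. Its log2 change of -1.02, with a standard error of 0.78 (edgeR adjusted p = 0.363), turned to 0.064 (adjusted p = 0.946) without mouse 481, the library with the highest hair follicle markers. The part of the hair follicle in this value was not tested. Col24a1 (chromosome 3, 145292472 to 145552011) had 5, 6, 1 and 11 counts after DMSO and 50, 25 and 20 counts after ABT-263. Its CPM overlapped between the groups (0.0513 to 0.452 and 0.430 to 1.79), and its log2 change of 1.91, with a standard error of 0.71, had an edgeR adjusted p of 0.0807. The remaining fibril-forming genes were Col11a2, at 1.64 to 2.51 CPM after DMSO and 1.11 to 2.29 CPM after ABT-263 (adjusted p = 0.358 from edgeR), and Col2a1, which had too few counts to be tested.

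The order of the genes was compared in CPM per kilobase of transcript, since longer mRNAs give more fragments. After DMSO, Col1a1 (364 ± 74.1, SD, n = 4) was followed by Col1a2 (253 ± 38.1), Col3a1 (87.8 ± 22.0), Col5a1 (11.6 ± 3.51), Col5a3 (7.14 ± 2.73), Col5a2 (5.58 ± 1.42), Col27a1 (2.79 ± 0.778), Col11a1 (0.229 ± 0.245) and Col24a1 (0.0336 ± 0.0231). The ranges over mice overlapped between Col1a1 and Col1a2, between Col5a1 and Col5a3, between Col5a3 and Col5a2 and between Col5a2 and Col27a1, although within each DMSO library Col1a1 was above Col1a2, Col5a1 above Col5a3 and Col5a3 above Col5a2. After ABT-263, Col3a1 (669 ± 291, SD, n = 3) was above Col1a1 (505 ± 113) and Col1a2 (449 ± 122) in mice 476 and 478 but below both in mouse 477, and the ranges of the 3 genes overlapped. This order after ABT-263 depends on the transcript length used, since with the length of all annotated exons Col3a1 was above Col1a1 in mouse 476 only (ratios 1.03, 0.494 and 0.965 in mice 476 to 478) and above Col1a2 in all 3. Col5a2 (31.1 ± 11.9) and Col5a1 (26.8 ± 7.23) also overlapped after ABT-263, with Col5a2 higher in 2 of the 3 mice by this length and in mouse 476 only by that of all exons, and Col5a3 (16.2 ± 3.92) was below both.

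The make-up of the fibrillar collagen mRNA, as each gene's share of the summed level per kilobase, showed the same shift. Col1a1, Col1a2 and Col3a1 together took 95.3% to 97.0% in every library. Within that total, Col3a1 took 12.7%, 9.90%, 13.9% and 11.3% in DMSO mice 480 to 483 and 45.1%, 28.0% and 42.5% in ABT-263 mice 476 to 478. Col1a1 took 45.4% to 52.2% after DMSO and 27.5% to 35.6% after ABT-263. Neither share overlapped between the groups. The share of Col5a2 was 0.761% ± 0.156 (SD, n = 4) after DMSO and 1.81% ± 0.353 (SD, n = 3) after ABT-263, whereas those of Col5a1 (1.58% and 1.59%) and Col5a3 (0.958% and 0.966%) had nearly equal means. These shares sum to a fixed total, so a larger share of one gene lowers the others. They also depend on the transcript length used, and they were not tested.

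**Figure D3:**
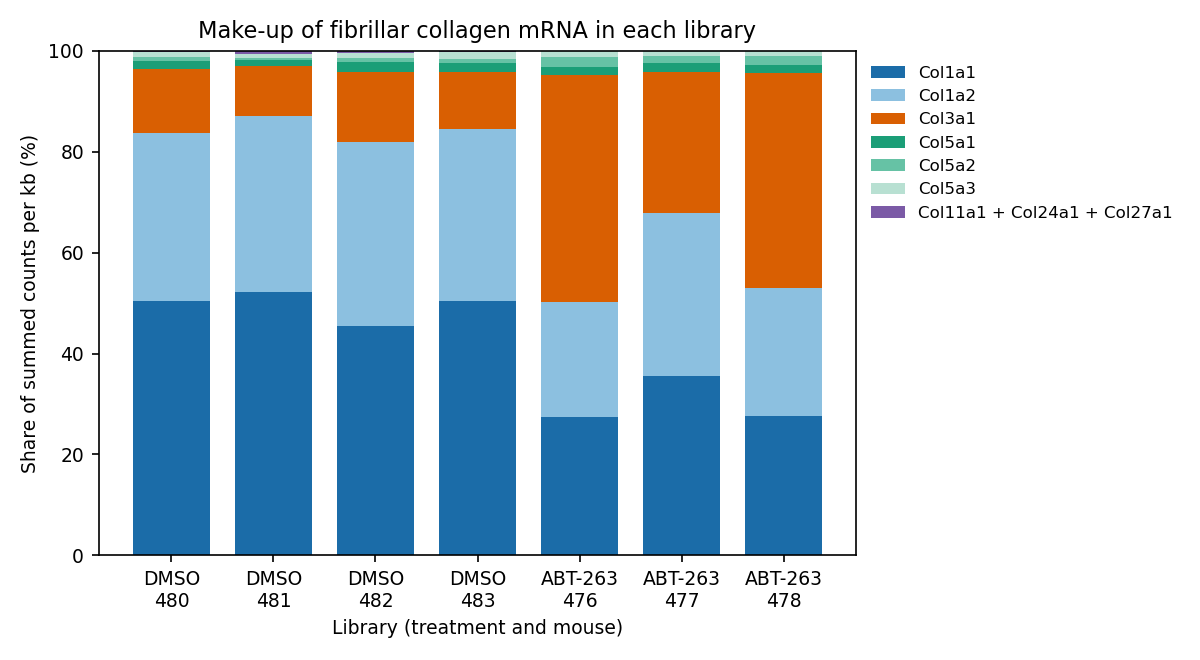
Share (%) of each fibrillar collagen in the summed counts per kilobase of transcript of the 9 genes, 1 bar for each library. Col3a1 (orange) fills 9.90% to 13.9% of the DMSO bars and 28.0% to 45.1% of the ABT-263 bars.

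A scaling of a whole library, such as for its depth, cancels in a ratio of chains within that library. A correction that differs between genes, such as for GC content, does not cancel. Here 10 such ratios were compared. Each was a ratio of counts per kilobase, tested on the log2 scale with a two-sided exact permutation test over the 35 splits of the 7 mice, whose smallest possible p is 0.0286, and adjusted over the 10 ratios. In all, 6 ratios passed an adjusted p under 0.05, 4 upwards and 2 downwards after ABT-263, and 8 did not overlap between the groups. All 6 had the smallest possible p, and their adjusted p depends on how many of the 10 ratios, several of which share a gene, reached it. The 95% intervals given with them come from inverting that test and are not adjusted for the number of ratios.

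The Col1a1 to Col1a2 ratio, which compares the chains of 1 molecule, was 1.51, 1.49, 1.24 and 1.48 in DMSO mice 480 to 483 and 1.21, 1.11 and 1.09 in ABT-263 mice 476 to 478. The groups did not overlap, but DMSO mouse 482 stood next to the ABT-263 mice. The log2 difference was -0.33 (95% interval -0.51 to 0.13), with an exact permutation p of 0.0571 and an adjusted p of 0.0816, which missed the threshold. The level of this ratio, though not the difference, depends on the transcript length used, since with the length of all annotated exons the geometric mean after DMSO was 2.99 in place of 1.43.

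The Col3a1 to Col1a1 ratio, which sets type III against type I collagen, was 0.252, 0.190, 0.306 and 0.223 in the DMSO mice and 1.64, 0.788 and 1.54 in the ABT-263 mice. All 3 ABT-263 mice were above the DMSO mice, and mouse 477 was the lowest of the 3. The geometric mean was 5.26-fold higher after ABT-263 (log2 difference 2.39, 95% interval 1.37 to 3.17, exact permutation p = 0.0286, adjusted p = 0.0476). The Col3a1 to Col1a2 ratio, at 0.283 to 0.381 after DMSO and 0.871 to 1.98 after ABT-263, was 4.18-fold higher (exact permutation p = 0.0286, adjusted p = 0.0476). Col3a1 thus gained on both type I genes.

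The ratio of Col5 (Col5a1, Col5a2 and Col5a3 summed) to Col1 (Col1a1 and Col1a2 summed) was 0.0387, 0.0259, 0.0454 and 0.0470 after DMSO and 0.0925, 0.0606 and 0.0818 after ABT-263. The lowest DMSO value was again in mouse 481, and the groups did not overlap. The ratio was 2.02-fold higher after ABT-263 (log2 difference 1.01, 95% interval 0.32 to 2.32, exact permutation p = 0.0286, adjusted p = 0.0476), and without mouse 481 the log2 difference was 0.82.

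Among the type V chains, the Col5a2 to Col5a1 ratio was 0.452, 0.534, 0.482 and 0.479 after DMSO and 1.45, 0.799 and 1.24 after ABT-263. It was 2.32-fold higher after ABT-263 (95% interval of the log2 difference 0.59 to 1.68, exact permutation p = 0.0286, adjusted p = 0.0476), and this difference does not depend on the transcript length. Col5a2 was below Col5a1 in every DMSO library and above it in 2 of 3 ABT-263 libraries by transcript length, but in 1 of 3 by the length of all exons. The Col5a3 to Col5a1 ratio overlapped, at 0.494 to 0.729 after DMSO and 0.515 to 0.754 after ABT-263 (log2 difference 0.02, 95% interval -0.63 to 0.68, exact permutation p = 0.886, adjusted p = 0.886). The Col5a2 to Col3a1 ratio, of the neighbouring genes, fell from 0.0559, 0.0571, 0.0653 and 0.0766 to 0.0467, 0.0506 and 0.0448 (log2 difference -0.42, 95% interval -1.06 to -0.01, exact permutation p = 0.0286, adjusted p = 0.0476). That difference was much smaller than the change of either gene.

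Of the ratios with the minor collagens, that of Col27a1 to Col1 was 3.72-fold lower after ABT-263, from 0.00328 to 0.00720 in the DMSO mice to 0.000887 to 0.00172 in the ABT-263 mice (exact permutation p = 0.0286, adjusted p = 0.0476). The Col11a1 to Col5a1 ratio did not overlap either, but mouse 481 was at 0.0900 and the other DMSO mice between 0.00586 and 0.0108, and its adjusted p was 0.107 from the exact permutation test. Its log2 difference was -1.91 with mouse 481 and -1.02 without it. The Col24a1 to Col1 ratio overlapped, with an adjusted p of 0.286 from the exact permutation test.

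**Figure D4:**
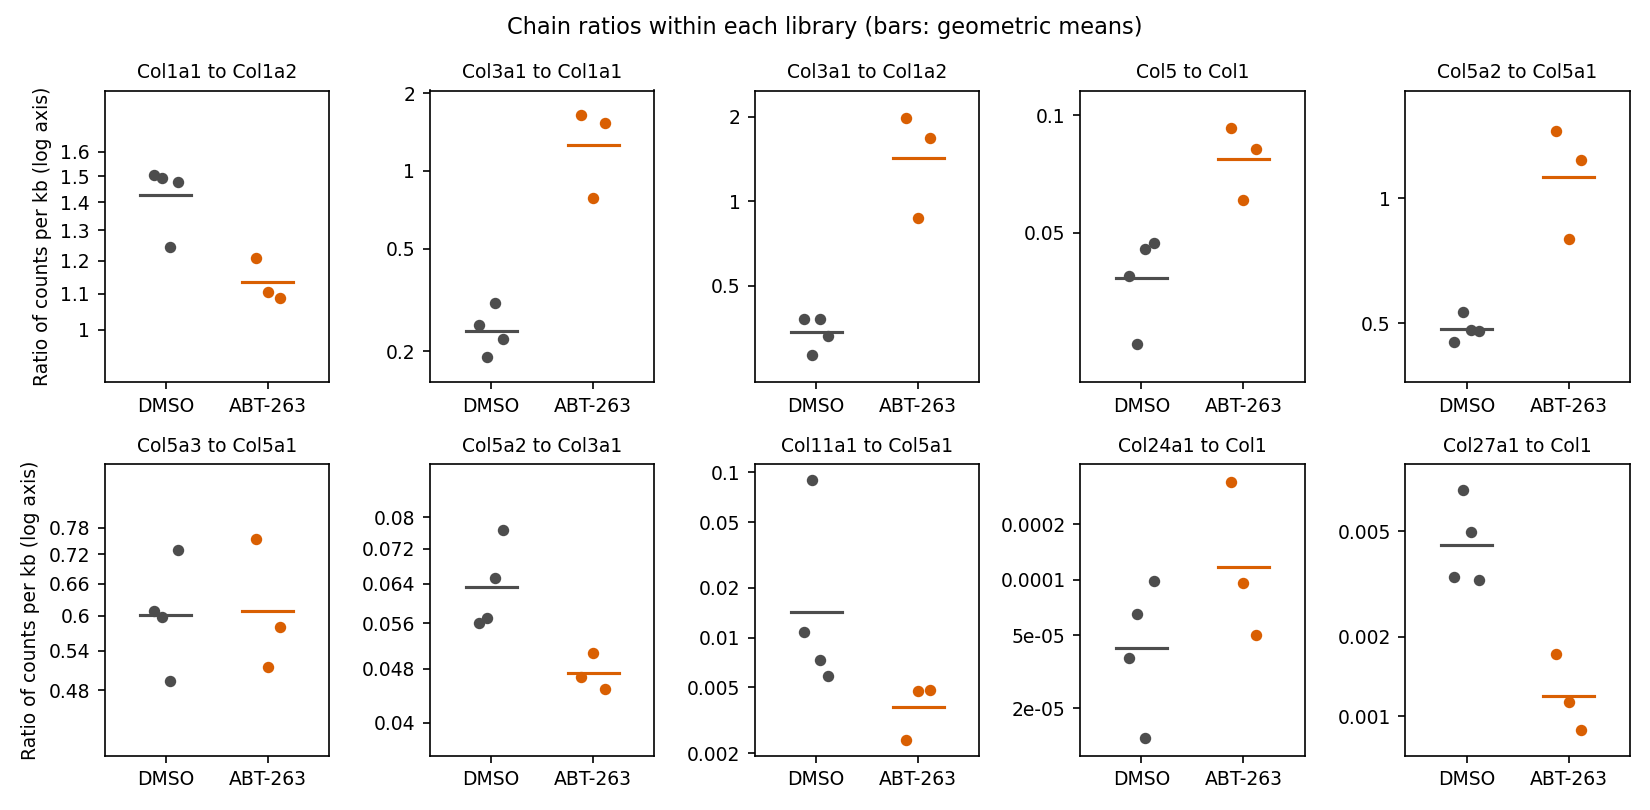
The 10 ratios of counts per kilobase of transcript in each library (log axes, 1 panel for each ratio), DMSO in grey (n = 4) and ABT-263 in orange (n = 3), with bars for the geometric means. Col3a1 to Col1a1 runs from 0.190 to 0.306 after DMSO and from 0.788 to 1.64 after ABT-263, and Col5a3 to Col5a1 overlaps.

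Fibrillar collagens need a set of partner genes, described here from lists of their known roles, whose shares stand against 12.4% higher and 11.7% lower over all genes tested. In either direction, the share of all genes past the threshold fell from 24.2% to 23.5%, 16.1%, 10.3% and 11.7% without DMSO mice 480 to 483. It was 12.0%, 21.6% and 9.39% without ABT-263 mice 476 to 478, 24.3% with trends on GC content and length removed, and 17.0% by the DESeq2 Wald test. Of 23 genes for folding and hydroxylation of procollagen, 11 (47.8%) were higher and 1 (4.35%) lower at an adjusted p under 0.05 from edgeR, with a median log2 fold change of 0.57. Sec24d, a coat protein of the vesicles that carry procollagen, was at 5.90 to 9.57 CPM after DMSO and 18.6 to 24.0 CPM after ABT-263 (log2 change 1.47, edgeR adjusted p = 0.00628). P3h3, a prolyl 3-hydroxylase family member, and Serpinh1, the collagen chaperone Hsp47, rose by 1.27 and 1.06 on the log2 scale (adjusted p = 0.00686 and 0.0139). The prolyl 3-hydroxylase P3h2 fell by 0.69 on the log2 scale (adjusted p = 0.0229). The count of higher genes was 4 without DMSO mouse 482 or ABT-263 mouse 476 or 478 and 5 without DMSO mouse 483. It was 7 without DMSO mouse 481 or with trends on GC content and length removed, and 13 without ABT-263 mouse 477. P3h2 was not past the threshold without DMSO mouse 482 or 483 or ABT-263 mouse 476 or 478.

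Of 11 tested genes for propeptide removal and cross-linking, 5 (45.5%) were higher and 2 (18.2%) lower after ABT-263 (edgeR), with a median log2 fold change of 0.90. Bmp1 and Tll1, proteases that cut the C-terminal propeptide of procollagen, rose from 70.9 ± 11.4 to 149.9 ± 32.0 CPM and from 0.405 ± 0.192 to 3.86 ± 1.97 CPM (SD, n = 4 and 3), with adjusted p of 0.00887 and 0.00761 from edgeR. Lox, which starts the cross-linking of fibrils, was at 21.2 to 46.2 CPM after DMSO and 79.3 to 146 CPM after ABT-263 (adjusted p = 0.0111). Pcolce2, an enhancer of C-propeptide cleavage, and Adamts14, which cuts the N-terminal propeptide, fell by 1.07 and 1.09 on the log2 scale (adjusted p = 0.0239 and 0.0288). Without DMSO mouse 482 or 483 or ABT-263 mouse 476 or 478, 3 were higher, and without ABT-263 mouse 477, 6 were. The count of lower genes was 1 without DMSO mouse 481 or 482 or ABT-263 mouse 478. It was 0 without DMSO mouse 483 or ABT-263 mouse 476 or 477.

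Of 20 tested proteins that sit on or beside fibrils, 10 (50%) were higher and 0 lower by edgeR, with 13 and 0 at an unadjusted p under 0.05 and 12 and 0 by the DESeq2 Wald test, and the median log2 fold change was 0.98. Col12a1, a collagen that decorates type I fibrils, was at 18.3 to 29.9 CPM after DMSO and 60.9 to 102 CPM after ABT-263 (adjusted p = 0.00641 from edgeR). Lum, lumican, which regulates fibril spacing, was at 55.9 to 71.3 and 121 to 288 CPM (adjusted p = 0.00819), and Thbs2, thrombospondin 2, at 31.0 to 64.8 and 92.1 to 133 CPM (adjusted p = 0.0153). The number higher was 6 without DMSO mouse 480, 4 without DMSO mouse 481 or 483 or ABT-263 mouse 478, 3 without DMSO mouse 482 and 5 without ABT-263 mouse 476.

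Of 11 tested genes for collagen breakdown and uptake, 4 (36.4%) were higher and 1 (9.09%) lower by edgeR, with a median log2 fold change of 1.09. The gelatinase Mmp2 was at 119 to 257 CPM after DMSO and 360.4 to 500.3 CPM after ABT-263 (adjusted p = 0.0185). Mmp13, an interstitial collagenase, and Mmp9, a gelatinase, rose (adjusted p = 0.0254 and 0.0194), with mouse 476 at 378 and 316 CPM against 16.7 to 39.3 CPM in the other ABT-263 mice and 1.39 to 12.9 CPM after DMSO. Timp3, an inhibitor of these proteases, fell by 0.57 on the log2 scale (adjusted p = 0.0455). The count of higher genes was 0 without DMSO mouse 482, 1 without DMSO mouse 483 and 2 without ABT-263 mouse 478, and Timp3 was past the threshold without DMSO mouse 480 but in none of the other 6 fits that left out a library.

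Of 9 tested collagen receptors, 2 (22.2%) were higher and 0 lower by edgeR (4 and 0 at an unadjusted p under 0.05, and 4 and 0 by the DESeq2 Wald test), with a median log2 fold change of 0.49. Itgb1, the beta 1 integrin chain shared by the collagen-binding integrins, was at 145 to 172 CPM after DMSO and 268 to 408 CPM after ABT-263, and Itga11, the alpha 11 chain of a fibroblast collagen receptor, at 2.78 to 4.72 and 6.70 to 16.6 CPM (adjusted p = 0.00921 and 0.0183 from edgeR). Of 17 genes of TGF-beta signalling and other regulators of fibrillar collagen expression, among them the inhibitory Smad7 and the collagen mRNA-binding Larp6, 2 were higher and 2 lower by edgeR, 11.8% each way, which is near the shares over all genes, and their median log2 fold change was 0.14. Tgfbr2, a receptor for TGF-beta, rose from 41.2 ± 4.51 to 123 ± 35.9 CPM (SD, n = 4 and 3, adjusted p = 0.00628), and Smad2, which carries its signal, rose by 0.44 on the log2 scale (adjusted p = 0.0289). Sox9 and Scx, factors that activate collagen genes in cartilage and tendon, fell by 1.29 and 1.41 on the log2 scale (adjusted p = 0.0102 and 0.0437). Of these regulators, 1 was higher without DMSO mouse 482 or 483 or ABT-263 mouse 478, and 3 were higher without DMSO mouse 481. The count of lower regulators was 1 with trends on GC content and length removed or without any 1 library other than DMSO mouse 482.

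**Figure D5:**
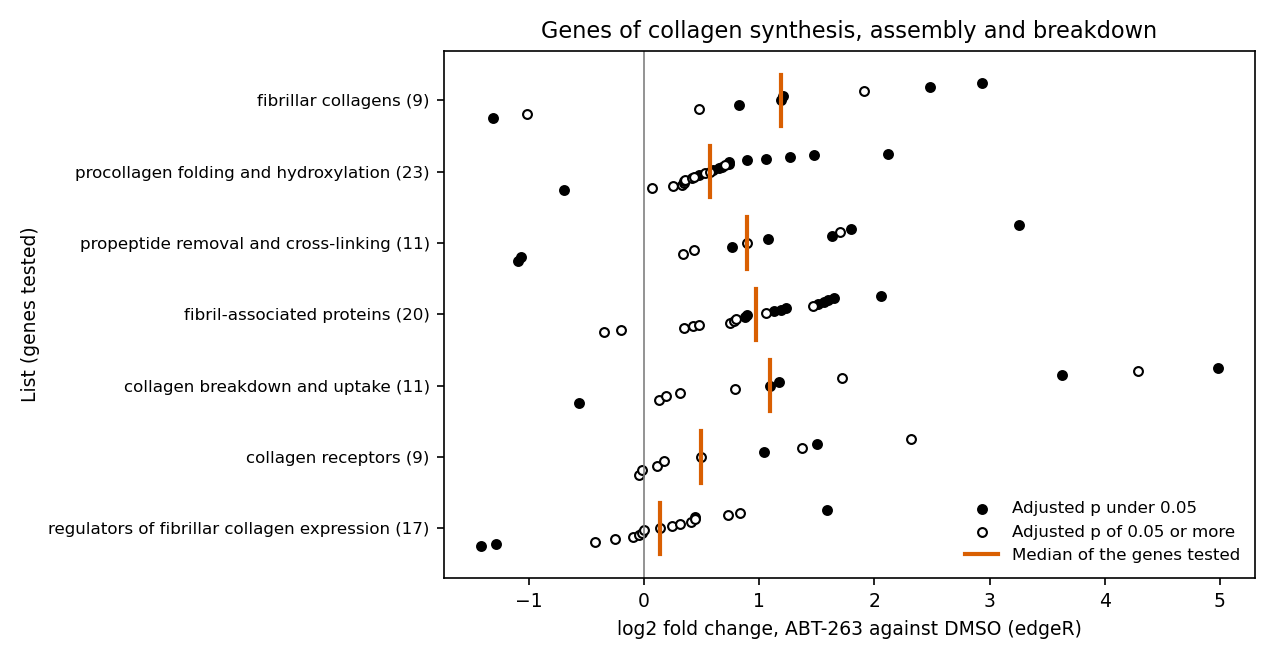
log2 fold change (ABT-263 against DMSO, edgeR) of every tested gene of the fibrillar collagens and of 6 lists of their partners, filled where the adjusted p is under 0.05, with an orange bar for each list's median. The medians of the lists run from 0.14 for the regulators of expression to 1.19 for the fibrillar collagens.

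Among genes with a mean of at least 10 CPM, the 9 collagens left out, those whose log2 CPM followed Col3a1 most closely over the 7 libraries included Igsf10, Nid1, Aqp1 and Jam2, with Pearson correlations of 0.993 to 0.998. Col5a2 had a correlation of 0.994 with Col3a1 on the same scale. Those closest to Col1a1 were other genes, Nsdhl, Epb41l1, Tti1, Slc41a1 and Abcf2, with correlations of 0.960 to 0.983. Col1a2 had a correlation of 0.936 with Col1a1. The 7 points share their treatment groups, so these values describe the pattern and were not tested.

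Of the marker lists of other cell types, those of leukocytes and endothelium had most of their tested genes higher after ABT-263. Over all genes tested, 12.4% were higher and 11.7% lower by edgeR. The shares higher of dermal fibroblast (16.7%) and keratinocyte (11.1%) markers were near the first value. The shares lower of hair follicle (12.5%) and of myofibroblast and smooth muscle (14.3%) markers were near the second. Of 10 tested leukocyte markers, 7 were higher and 0 lower by edgeR (9 and 0 at an unadjusted p under 0.05), and their summed level was 271 to 2149 CPM after DMSO and 5755 to 10616 CPM after ABT-263, with Ly6g and Cd79a too low to be tested. Most of the sum in every ABT-263 library was S100a8 (1714 to 2912 CPM) and S100a9 (3355 to 5016 CPM), so the sum follows these genes. Whether leukocytes or other cells of the skin made their RNA was not tested. S100a9 did not pass (adjusted p = 0.0772 from edgeR). Ptprc was at 5.56 to 9.82 CPM after DMSO and at 114, 16.2 and 22.2 CPM in ABT-263 mice 476 to 478. All 6 endothelial markers were higher (134 to 299 CPM and 444 to 584 CPM summed). Of 12 dermal fibroblast markers, Pdgfra and Lum were higher and 0 lower by edgeR (3 and 0 at an unadjusted p under 0.05), and the summed level overlapped between DMSO (1441 to 2330 CPM) and ABT-263 (2114 to 3122 CPM). Of 7 myofibroblast and smooth muscle markers, 0 were higher by edgeR (1 at an unadjusted p under 0.05) and Actg2 was lower, with summed levels of 3732 to 7017 and 3548 to 6480 CPM. Most of each sum was Des (3441 to 6631 CPM after DMSO and 3251 to 6164 CPM after ABT-263), so the sums follow that gene and do not measure myofibroblasts. Which cells of the skin and the muscle under it made the Des RNA was not tested. Acta2 was at 108 to 138 and 121 to 180 CPM. Of 6 chondrocyte and osteoblast markers, Comp was higher and Acan lower, and Matn3, Bglap, Sp7 and Ibsp were too low to be tested. Of 8 skeletal muscle markers, Tnnc2 and Tnnt3 were lower and 0 higher by edgeR (4 lower and 0 higher at an unadjusted p under 0.05), at 34823 to 70787 CPM summed after DMSO and 27647 to 36598 CPM after ABT-263. Of 8 tested hair follicle markers, Lhx2 was lower and 0 were higher (2 lower and 0 higher at an unadjusted p under 0.05), at 66.9 to 2134 and 11.2 to 401 CPM summed. Of the other lists, 1 of 9 keratinocyte markers (Dsg3) was higher and 0 of 6 dermal adipocyte markers passed in edgeR (3 higher at an unadjusted p under 0.05), and the summed levels of each overlapped between the groups. The part of these cell types in the collagen values was not tested.

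DMSO mouse 481, with the highest hair follicle and the lowest leukocyte markers of the DMSO group, was the lowest DMSO library for Col1a2, Col3a1 and the 3 Col5 genes and the highest for Col11a1 and Col27a1. Without it, Col3a1 was higher by 2.79, Col5a2 by 2.31, Col5a1 by 1.00 and Col5a3 by 0.98 on the log2 scale, and Col27a1 fell by 1.11 (adjusted p between 0.0163 and 0.0433 from edgeR), whereas Col1a2 did not pass (0.76, adjusted p = 0.0947). Without ABT-263 mouse 476, the library with the highest leukocyte markers, Col3a1 was higher by 2.95 and Col5a2 by 2.49 on the log2 scale (adjusted p = 0.0151 and 0.0162 from edgeR), and Col5a3 did not pass (1.20, adjusted p = 0.0823).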

How the data were processed

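RNA sequencing of skin from 7 mice (4 DMSO, 3 ABT-263) was analyzed. The authors aligned reads to mm10 with STAR 2.7.9a and deposited raw counts of uniquely aligned, same-strand read pairs per Ensembl gene from featureCounts (Subread 1.6.2), and a second table that DESeq2 had stabilized for variance, in units close to log2. The second table served only as an alternative for the chain ratios. Symbols, positions and lengths came from GENCODE M21 (GRCm38), which held 55190 of 55450 identifiers, and the transcript with the longest coding part gave each gene's length.

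The counts were fitted with edgeR 4.0.16 in R 4.3.3 (TMM, filterByExpr, robust quasi-likelihood test, two-sided), with Benjamini-Hochberg adjustment over 17959 genes and a threshold of 0.05. CPM used TMM-scaled totals. Each library is 1 mouse, so p-values measure the spread between mice. Ratios were tested with exact permutation over all splits, written in Python 3.11.15, and the correlations used log2(CPM + 0.5). Named list genes were up to 3 with the smallest p in each direction past the threshold, and the 5 genes most like each of Col3a1 and Col1a1, of which 1 is not reported here. The members and lists were chosen with earlier results of these data known. The alternatives tried were the Wald test of DESeq2 1.42.0, DESeq2 size factors, no filter on low counts, at least 10 counts in every library, counts thinned to 20344364, trends on GC content and length removed (mgcv 1.9.3), and each mouse left out. The labels name no batch.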

Additional observations from a re-analysis of the deposited data

Results flagged for a closer look

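In each group of 4 DMSO libraries, the gap between an extreme library and its nearest neighbour was divided by the range of the group, for 19 measures (9 genes and 10 ratios). This was set against Dixon's 95% critical value for 4 libraries, and chance flags about 1 in 20 groups, or 0.95 of 19 measures. It was exceeded for 2 measures. For Col11a1, DMSO mouse 481 stood above the other 3 DMSO libraries with a value of 0.855 (4.55 CPM against 0.616 to 1.19 CPM). For the Col1a1 to Col1a2 ratio on the log2 scale, DMSO mouse 482 stood below the other 3 with a value of 0.904 (1.24 against 1.48 to 1.51), and without it the log2 difference between the groups was -0.40 in place of -0.33. The ABT-263 group, with 3 libraries, was not examined in this way.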

How the results depend on the processing

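The number of fibrillar collagens past the threshold was 6 in 5 of the 6 other settings of the test and 5 with no filter on low counts. The share of all genes past it was 17.0% by the DESeq2 Wald test and 23.6% with DESeq2 size factors. It was 26.1% with at least 10 counts in every library, 24.0% after thinning, 24.3% with trends removed and 11.1% with no filter. With each library left out, the number of fibrillar collagens past the threshold ranged from 3 to 6, and the number higher from 2 to 5. Without DMSO mouse 482 or ABT-263 mouse 478 it was 3, with 2 higher, and the share of all genes past the threshold was then 10.3% and 9.39%. Col3a1, Col5a2 and Col27a1 were past it in every fit. Col11a1 was the only one of the 9 genes whose direction turned, with log2 fold changes from -1.43 to 0.064 over the fits that left out a library, the latter without mouse 481. With the variance-stabilized values, which could not be used for summed chains, the log2 difference of the Col3a1 to Col1a1 ratio was 2.39. Its adjusted p was 0.05 from the exact permutation test, as were those of 3 other ratios, which missed the threshold. Without the ratios of summed chains, a smaller share of the ratios had the smallest possible p, and this raised the adjusted p. Removal of trends on GC content and length gave log2 differences of -0.24 for Col1a1 to Col1a2 and 2.24 for Col3a1 to Col1a1. It gave 1.05 for Col5 to Col1 and 1.02 for Col5a2 to Col5a1. The adjusted p from the exact permutation test was then 0.107 for Col1a1 to Col1a2 and 0.0476 for each of the others. With each library left out, the log2 differences ranged from -0.40 to -0.30 for Col1a1 to Col1a2, from 2.20 to 2.73 for Col3a1 to Col1a1 and from 0.82 to 1.19 for Col5 to Col1. Those designs cannot reach an exact permutation p under 0.0667. Col24a1 had too few counts to be tested with at least 10 counts in every library or after thinning. The length alternative was chosen after seeing the data. No paired analysis was possible because the groups share no mouse number. Col11a1 and Col24a1 rest on the fewest counts, at most 108 and 50 in a library, and the part of depth in their missed calls was not tested.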
